A study of Rattus norvegicus with 8 samples.

Results

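The SLC25 proteins are the carriers of the inner mitochondrial membrane. They were taken as the genes whose name on the array begins with Slc25a, with Slc25a20 left out, together with the uncoupling proteins Ucp1, Ucp2 and Ucp3, which belong to the same family. The rule found 42 genes of the 18109 genes with a symbol among all probes, and 56 probes measured them. A gene was tested where at least 4 of the 8 livers gave a signal well above background, which 32 of the 42 genes did and 10 did not.

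The inner mitochondrial membrane is nearly closed to charged molecules, and carriers of this family let nucleotides, phosphate, keto acids, amino acids and cofactors cross it. Most work as exchangers, so that export of one metabolite pays for import of another. In hepatocytes they link the citric acid cycle and oxidative phosphorylation in the matrix to the urea cycle, gluconeogenesis, and fat and heme synthesis, parts of which lie in the cytosol. The uncoupling proteins carry protons or anions, and the first of them makes heat in brown fat.

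Liver RNA came from Wistar rats killed at 21 days of age. The control group (n = 4, 1 male and 3 females) was born to dams on a standard diet. The deficient group (n = 4, 2 males and 2 females) was born to dams whose food lacked vitamin B12 and folate, which feed the methylation reactions of the cell. Dams received their diet from 1 month before mating through pregnancy and suckling, so the pups met it through the dam. Dams and litters of the pups are not given in the sources used here, so the p-values cover only the spread between these animals. The comparison asks which carriers differ between livers of deficient and control pups.

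Each of 4 Agilent 2-colour arrays held 1 control and 1 deficient liver in opposite dyes. Array 1 held control 1 with deficient 3, array 2 control 3 with deficient 1, array 3 control 2 with deficient 4, and array 4 control 4 with deficient 2. Median signals were between 152.5 and 299.0 over local backgrounds of 33 to 58, and the number of arrays limits the precision. Levels below are normalised log2 intensities, differences are deficient minus control on the log2 scale with the standard error of the fit (n = 4 per group), and a gene was called where limma gave an adjusted p under 0.05 over the 15037 genes tested. All 12 hepatocyte markers looked for were above background. Of 18 skeletal muscle markers with a probe, 6 were above background in at least 4 livers. On array 1 these markers had a median difference of 1.84, beside 0.11 (array 2), 0.13 (array 3) and -0.05 (array 4). Their summed level was 11.4 to 11.6 in control and 11.8 to 13.8 in deficient livers. Outside deficient 3, the gap between these sums rests on a single marker, Tnnc2. It was at 7.46 to 8.31 in control and 10.24 to 11.43 in deficient livers. In bulk liver, a change in cell numbers and a change in RNA per cell cannot be told apart.

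Livers of deficient pups had more RNA of 5 carriers and less of 4. The ADP/ATP translocase Slc25a4 rose 3.78-fold and Slc25a30, a relative of the uncoupling proteins, rose 3.42-fold, followed by Slc25a34, the coenzyme A carrier Slc25a42 and the glutamate carrier Slc25a22. The ATP-Mg/phosphate carrier Slc25a23, the aspartate/glutamate carrier Slc25a12, the dicarboxylate carrier Slc25a10 and Slc25a44, a carrier of branched-chain amino acids, fell to between 65.1% and 76.1% of the control level. The other 23 tested carriers were not called, and 18 of them differed by less than 0.2 in either direction. The called carriers lay in 5 of the 7 substrate groups, and in 3 of these groups carriers were called in both directions.

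Of the 32 tested carriers, 9 (28.1%) were called, beside 11.1% of all genes tested. Called higher were 5 (15.6%), beside 4.56% of all genes, and called lower were 4 (12.5%), beside 6.56%. At an unadjusted p under 0.05 in limma the counts were 6 higher and 7 lower, beside 1940 and 2223 of 15037 genes. The median difference was 0.02 over the 32 carriers and 0.01 over all genes, with 19 carriers above 0 and 13 below. In 2 carriers every deficient liver was above every control liver, and in 4 every one was below, where 5.53% and 5.97% of all genes had groups apart in these directions. The 9 called carriers had different robustness. Slc25a4 kept its call in each of 12 refits that left out 1 animal or 1 array, Slc25a23 in 11, Slc25a22 in 10 and Slc25a12 in 9. The other 5 kept it in 5 or fewer. With the array as a fixed block the differences were the same, but Slc25a12 (limma adjusted p = 0.0555), Slc25a42 (0.0559), Slc25a10 (0.105), Slc25a44 (0.111) and Slc25a30 (0.152) lost their calls. With no array block Slc25a4 alone was called, and with sex added Slc25a4, Slc25a22, Slc25a23 and Slc25a12. In the 5 females no carrier was called, and the difference fell to 0.19 for Slc25a42 (limma adjusted p = 0.519) and 0.58 for Slc25a34 (limma adjusted p = 0.431). It was larger in size for Slc25a12 (-0.70) and Slc25a10 (-0.51), and smaller with the same sign for the other called carriers. The deficient females were deficient 1 and deficient 3. Over all genes, 3.09% were called with a fixed block, 2.65% with no block, 5.53% with sex added and 0.333% in females only.

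**Figure D1:**
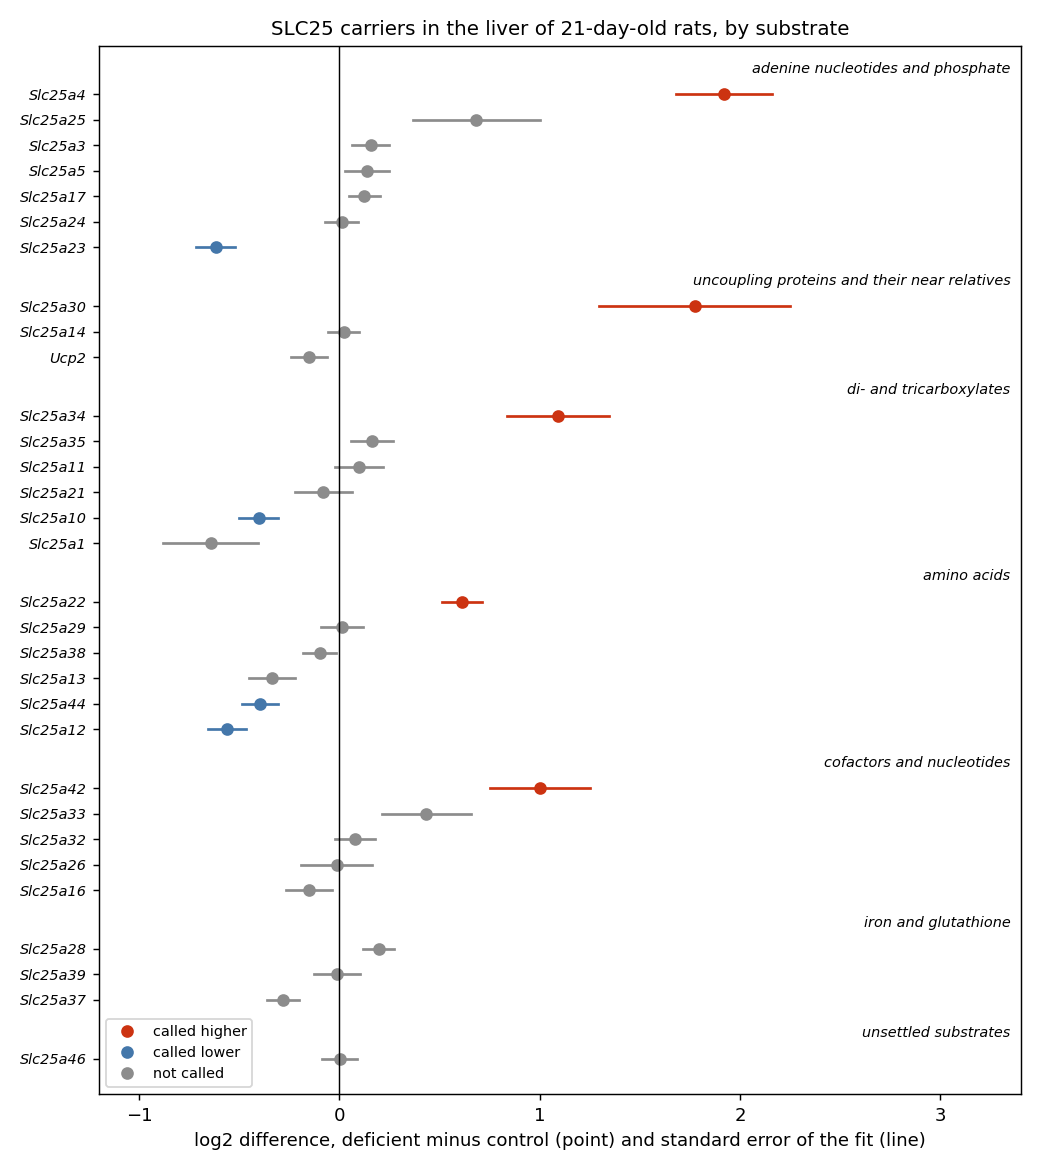
Difference between deficient and control livers for 31 of the 32 tested carriers, grouped by substrate. Points are log2 differences (deficient minus control, x axis), lines the standard error of the limma fit (n = 4 per group), red called higher, blue called lower and grey not called. Slc25a4 at 1.92 and Slc25a30 at 1.77 lie farthest to the right, and Slc25a23 at -0.62 is the lowest of the called carriers.

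The first group moves adenine nucleotides and phosphate, and of its 7 tested members 1 rose and 1 fell. Slc25a4 encodes the ADP/ATP translocase ANT1, the main form in heart and skeletal muscle, which trades matrix ATP for cytosolic ADP. Its levels were 10.97, 11.08, 11.35 and 11.93 in control livers 1 to 4 and 13.67, 13.48, 12.35 and 13.50 in deficient livers 1 to 4. Every deficient liver lay above every control liver, and deficient 3 was the lowest of its group. The difference was 1.92 ± 0.24 (95% interval 1.37 to 2.47, limma adjusted p = 0.00333), positive on all 4 arrays at 1.38, 2.32, 2.43 and 1.55. The call held in 24 of 25 alternatives, females only being the exception (1.61, limma adjusted p = 0.135 with 3 control and 2 deficient livers).

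Slc25a5 encodes ANT2, the form of dividing and many other cells, which carries out the same exchange. Its levels were 13.61, 13.93, 13.90 and 14.31 in control livers and 13.67, 14.20, 14.04 and 14.38 in deficient livers. The groups overlapped and the difference was 0.14 ± 0.11 (limma adjusted p = 0.459). A second Slc25a5 probe gave -0.08 (limma adjusted p = 0.687 in the fit of every probe). Because the translocases are close relatives, the first 30 bases of their 60-base probes are shown with the probe positions in rn4:
Slc25a4 probe (chr16:49357074-49357133): ccagaccataaggaatacctcagaaaaatg
Slc25a5 brightest probe (chrX:8073675-8073734): ttaatgtgtcagtgcagggcattatcatct
Slc25a5 second probe (chrX:8072602-8072997): caaaggaactgatatcatgtatacaggaac
The longest run of identical bases between the whole Slc25a4 probe and either Slc25a5 probe was 6.

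Skeletal muscle is rich in Slc25a4, so its level is set beside muscle markers. Ckm, muscle creatine kinase, differed by 3.23 on array 1, which holds deficient 3, and by 0.02, 0.47 and 0.01 on arrays 2 to 4. It was well above background in only 1 control and 1 deficient liver, so small differences in Ckm could not be measured elsewhere. Slc25a4 had its smallest difference on array 1 and differed by 2.18 ± 0.18 without that array (limma adjusted p = 0.00162). Tnnc2, troponin C of fast muscle, differed by 3.12, 2.93, 2.57 and 2.78 on arrays 1 to 4 and was the only muscle marker called (2.85 ± 0.19, limma adjusted p = 0.000476). Myh2, a myosin of fast fibres, was at 1.57, 0.96, -0.20 and 0.65 on arrays 1 to 4 and above background in 3 livers.

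The ATP-Mg/phosphate carriers exchange these solutes in either direction under control of calcium and so set the adenine nucleotide content of the matrix. Slc25a23, called SCaMC-3, had levels of 14.23, 14.11, 14.24 and 14.07 in control and 13.71, 13.20, 13.69 and 13.57 in deficient livers. All deficient livers lay below all controls. It fell by 0.62 ± 0.10 to 65.1% of the control level (limma adjusted p = 0.0071), and it was lower on each array. Without array 3 the value was the same at -0.62 but the call was lost (limma adjusted p = 0.0913). Its relative Slc25a25 (SCaMC-2) was at 0.68 ± 0.32 and not called (limma adjusted p = 0.204), with differences of -0.97, 1.21, 1.31 and 1.18 on arrays 1 to 4. With 1 animal or 1 array left out Slc25a25 ranged widely, from 0.11 without array 3 (limma adjusted p = 0.864) to 1.25 ± 0.21 without array 1. The latter was the only such refit that called it (limma adjusted p = 0.0189). With 1 animal left out the lowest value of Slc25a25 was 0.25, without control 2 (limma adjusted p = 0.61). Slc25a24 (SCaMC-1) was at 0.01 ± 0.08. The phosphate carrier Slc25a3 was at 0.16 ± 0.09 and Slc25a17, the nucleotide and cofactor carrier of peroxisomes, at 0.12 ± 0.08, neither called. Slc25a41 was not well above background in any liver.

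The second group holds the uncoupling proteins and their near relatives, of which 3 of 6 were tested. Ucp1, the brown fat protein, was not well above background in any liver, with measured values of 6.16 to 6.21 in control and 6.14 to 6.31 in deficient livers. Ucp3, the muscle form, also stayed below that limit in every liver, with 6.08 to 6.32 in control and 6.17 to 6.39 in deficient livers. No difference in either could be measured. Ucp2 was measured at 8.49, 8.87, 8.68 and 8.84 in control and 8.40, 8.65, 8.59 and 8.61 in deficient livers. These ranges overlapped, and the difference was -0.15 ± 0.09 (limma adjusted p = 0.305).

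Slc25a30, known as KMCP1 from its abundance in kidney, was the carrier with the widest spread. Its levels were 10.30, 9.09, 8.41 and 8.72 in control and 11.79, 11.44, 8.92 and 11.46 in deficient livers. Deficient 1, 2 and 4 were above all controls, whereas deficient 3 lay among the controls and control 1, on the same array, was the highest control. The difference was 1.77 ± 0.48 (limma adjusted p = 0.0478), or -1.38, 3.38, 2.37 and 2.72 on arrays 1 to 4. Without array 1 it was 2.71 ± 0.15 (limma adjusted p = 0.00044), and without deficient 3 alone 2.45 ± 0.27 (limma adjusted p = 0.00231). The call was lost in 9 of the 12 refits, those without control 2, 3 or 4, deficient 1, 2 or 4, or array 2, 3 or 4. Values there were 0.84 to 1.94 (limma adjusted p from 0.0531 to 0.198). Slc25a14 (UCP5) was at 0.02 ± 0.08, and Slc25a27 (UCP4), a brain form, was below the background limit in all livers.

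**Figure D2:**
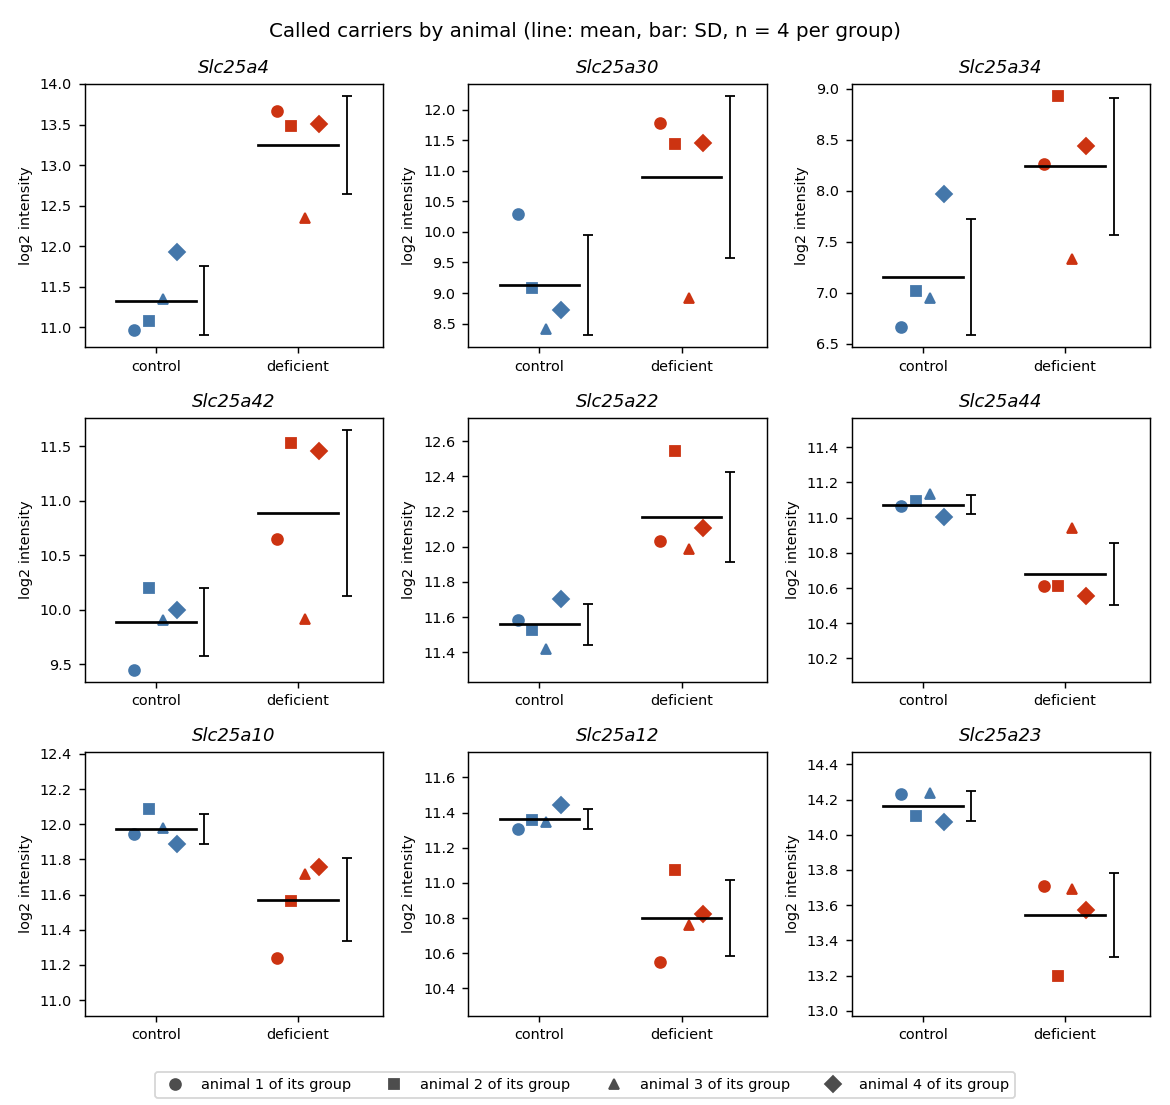
Level of each of the 9 called carriers in every liver, as normalised log2 intensity (y axis), with control livers blue and deficient livers red. Each symbol is 1 animal by its number within its group (symbols do not pair animals), lines are means and bars the SD (n = 4). The groups do not overlap for Slc25a4, Slc25a22, Slc25a23, Slc25a12, Slc25a10 and Slc25a44, and deficient 3 lies among the controls for Slc25a30, Slc25a34 and Slc25a42.

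Among 6 carriers of di- and tricarboxylates or of like sequence, 1 rose and 1 fell. Slc25a34, a relative of the dicarboxylate carriers with no well settled substrate, had levels of 6.66, 7.02, 6.95 and 7.97 in control and 8.26, 8.93, 7.33 and 8.44 in deficient livers. Control 4 lay above deficient 3, and 3 of the 4 controls were well above background. It rose by 1.09 ± 0.25, or 2.13-fold (limma adjusted p = 0.0311), with a positive difference on all 4 arrays. The call was lost in 7 of 12 refits (without control 1, 2 or 3, deficient 1 or 4, array 2 or 3), at values of 0.90 to 1.05 and limma adjusted p from 0.0529 to 0.243. Its nearest relative in the family, Slc25a35, was at 0.16 ± 0.10 and not called.

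Slc25a10 trades malate or succinate for phosphate and so supplies carbon for gluconeogenesis. Its levels were 11.94, 12.09, 11.98 and 11.89 in control and 11.24, 11.57, 11.72 and 11.76 in deficient livers. The groups did not overlap, control 4 and deficient 4 being nearest to each other. It fell by 0.40 ± 0.10 to 75.6% of control (limma adjusted p = 0.0343). The call was lost in 8 of 12 refits (without control 1, 2 or 3, deficient 3 or 4, array 1, 2 or 3), at -0.43 to -0.30 and limma adjusted p from 0.0532 to 0.225. The citrate carrier Slc25a1, which exports citrate for fatty acid and sterol synthesis, was at -0.64 ± 0.24 and not called (limma adjusted p = 0.118). Its levels were 10.14, 10.66, 10.82 and 10.74 in control and 8.84, 10.25, 10.40 and 10.29 in deficient livers, so that deficient 1 was far below the rest. Without deficient 1 the value was -0.30 (limma adjusted p = 0.177), and it was called without deficient 2 (-0.95, limma adjusted p = 0.0107) and without array 4 (-1.02, limma adjusted p = 0.0148). The oxoglutarate carrier Slc25a11 of the malate-aspartate shuttle was at 0.10 ± 0.12 and the oxoadipate carrier Slc25a21 at -0.08 ± 0.14.

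Of 10 carriers of amino acids, 6 were tested, 1 rose and 2 fell. Slc25a22 brings glutamate into the matrix together with a proton. It stood at 11.58, 11.52, 11.42 and 11.70 in control and 12.03, 12.55, 11.99 and 12.10 in deficient livers. All deficient livers were above all controls, deficient 2 most of all. It rose by 0.61 ± 0.10, or 1.53-fold (limma adjusted p = 0.00808). The call was lost without control 3 (limma adjusted p = 0.0611) and without array 3 (limma adjusted p = 0.107), at values of 0.61 and 0.57.

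Slc25a12 (aralar1) and Slc25a13 (citrin) send aspartate out of the matrix for glutamate, citrin being the main form of liver, where the aspartate feeds the urea cycle. Slc25a12 had levels of 11.31, 11.36, 11.34 and 11.44 in control and 10.55, 11.07, 10.76 and 10.82 in deficient livers. The control livers lay close together, and every deficient liver was below them. It fell by 0.56 ± 0.10 to 67.7% of control (limma adjusted p = 0.00952), losing the call without control 3, array 1 or array 3 (values from -0.56 to -0.54, limma adjusted p from 0.0516 to 0.111). A second, dimmer probe did not show this, at -0.11 ± 0.23 (limma adjusted p = 0.784 in the fit of every probe). The probes match different transcript records and lie far apart in rn4, so the first 30 bases of each are given:
Slc25a12 brightest probe (chr3:53557316-53557375): ccaacgaatcacgtttatagacatgtaacg
Slc25a12 second probe (chr3:53620139-53620198): aagcacctgaactatgtggaattcactcag
Citrin was lower on all 4 arrays but not called, at -0.34 ± 0.11 (limma adjusted p = 0.0965), a call it gained without deficient 2 (-0.41, limma adjusted p = 0.0355). Its levels were 11.33, 11.64, 11.64 and 11.70 in control and 11.12, 11.42, 10.90 and 11.53 in deficient livers, which overlap. These values are of the brightest citrin probe. A second citrin probe gave -0.26 ± 0.12 (limma adjusted p = 0.194 in the fit of every probe).

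Slc25a44, which takes branched-chain amino acids into mitochondria, had levels of 11.07, 11.10, 11.13 and 11.002 in control and 10.61, 10.61, 10.94 and 10.56 in deficient livers. The groups were apart, with deficient 3 nearest to the controls. It fell by 0.39 ± 0.09 to 76.1% of control (limma adjusted p = 0.028). Any control left out, deficient 1 or 4, array 2 or array 3 ended the call, at -0.43 to -0.29 and limma adjusted p from 0.0504 to 0.258. Slc25a29, a carrier of basic amino acids, was at 0.01 ± 0.11, and the glycine carrier Slc25a38, which feeds heme synthesis, at -0.10 ± 0.08. The ornithine carriers Slc25a2 and Slc25a15 were not well above background in any liver, although the latter serves the urea cycle. Each was read by a single probe, so these values do not show that its RNA was absent. The glutamate carrier Slc25a18 reached that limit in 1 control and 1 deficient liver. Slc25a45 reached it in 2 control and 0 deficient livers, with overlapping measured values.

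The carriers of cofactors and nucleotides include those closest to the missing vitamins, and 6 of 7 were tested. Slc25a32 takes folate into mitochondria, where one-carbon units are loaded onto it. Its levels were 7.89, 8.05, 7.76 and 8.13 in control and 7.93, 8.24, 7.78 and 8.19 in deficient livers. The groups overlapped throughout, with a difference of 0.08 ± 0.10 (95% interval -0.15 to 0.30, limma adjusted p = 0.649). Slc25a26 brings the methyl donor S-adenosylmethionine into the matrix in exchange for S-adenosylhomocysteine. It was at 7.23, 7.49, 8.28 and 7.32 in control and 8.13, 7.36, 7.28 and 7.49 in deficient livers. One liver of each group, control 3 and deficient 1, stood above the others, and both were on array 2. The difference was -0.01 ± 0.18 (95% interval -0.42 to 0.39, limma adjusted p = 0.968).

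Slc25a42 brings coenzyme A into the matrix in exchange for adenine nucleotides. Its levels were 9.45, 10.20, 9.91 and 10.00 in control and 10.65, 11.53, 9.92 and 11.46 in deficient livers. Deficient 1, 2 and 4 exceeded all controls and deficient 3 lay among them. It rose by 1.003 ± 0.249, or 2.004-fold (limma adjusted p = 0.0383), positive on all 4 arrays. The call was lost without any 1 control, deficient 4, or array 2, 3 or 4, at 0.77 to 1.20 and limma adjusted p from 0.0527 to 0.232. Slc25a16, also linked to coenzyme A, was at -0.15 ± 0.11 on its brightest probe and not called (limma adjusted p = 0.424). Its other probes gave -0.46 ± 0.09 (limma adjusted p = 0.0149 in the fit of every probe) and -0.40 ± 0.18 (limma adjusted p = 0.186), so the answer for this gene rests on the probe.

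Slc25a33, a carrier of pyrimidine nucleotides, was at 0.43 ± 0.22 on its brightest probe (limma adjusted p = 0.246) and at -0.01 on the other. The brightest probe was called without control 4 (0.73, limma adjusted p = 0.0327) and without array 4 (0.72, limma adjusted p = 0.0262). Slc25a36, the other pyrimidine nucleotide carrier, was well above background in 1 control and 1 deficient liver and was not tested. The iron importers Slc25a37 (mitoferrin-1, mainly of erythroid cells) and Slc25a28 (mitoferrin-2) were at -0.28 ± 0.08 (limma adjusted p = 0.0578) and 0.20 ± 0.08 (limma adjusted p = 0.144), neither called. Both were called without deficient 2 (limma adjusted p = 0.0476 and 0.0411), and Slc25a37 also without deficient 3 (limma adjusted p = 0.0484) or array 4 (limma adjusted p = 0.0474). Slc25a39, which takes up glutathione, was at -0.01 ± 0.11. Its relative Slc25a40 was above background in 0 control and 2 deficient livers, its measured values overlapped between groups, and it was not tested. Slc25a46, an outer membrane protein of the family involved in mitochondrial shape, was at 0.00 ± 0.09.

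Deficient 3 and array 1 recur through these values. Deficient 3 was the deficient liver nearest to the controls in 6 of the 9 called carriers, including all 5 that rose. Array 1 gave the smallest difference in the called direction in 7 of the 9, and for Slc25a30 a difference of the opposite sign. This array also held the only male control and the liver with high muscle markers, and their part in these values was not tested. Without deficient 3, limma called 5 carriers higher and 4 lower, 8 of these being among the 9, beside 11% of all genes. Without array 1 it called 6 higher and 2 lower, 7 of them among the 9, beside 7.47% of all genes. Array 3 mattered more for the counts, with 1 carrier higher (Slc25a4) and 0 lower without it, beside 213 calls among all genes.

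**Figure D3:**
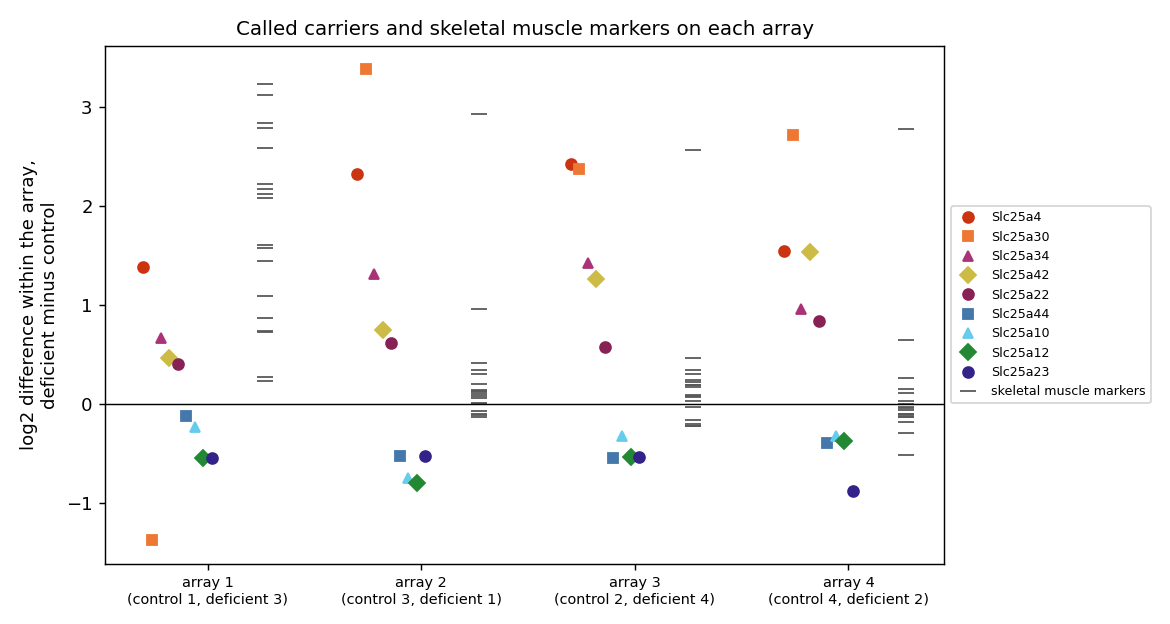
Difference within each array (y axis, log2, deficient minus control) for the 9 called carriers and, as grey dashes, 18 skeletal muscle markers. The muscle markers have a median of 1.84 on array 1 and medians between -0.05 and 0.13 on the others, with Tnnc2 above 2 on all 4, whereas Slc25a4 is positive on all 4 arrays and Slc25a30 is at -1.38 on array 1 and above 2 on the rest.

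Carriers of like substrate or sequence were then set against each other inside each liver, which cancels any shift shared by both. For 9 pairs, chosen after the values were seen, the log2 difference between the carriers was compared between diets by a two-sided exact permutation test over the 8 livers, whose smallest possible p is 0.0286. Arrays were not kept as blocks in this test. Except for Slc25a28 with Slc25a37, each pair set a carrier already called in these livers against an uncalled one. The exact p-values are therefore descriptive and no independent evidence on diet. Slc25a4 relative to Slc25a5 was higher in deficient livers by 1.78, and by 1.995 against the second Slc25a5 probe, with groups apart (exact p = 0.0286). Slc25a23 relative to Slc25a24 was lower by 0.63, Slc25a10 relative to Slc25a11 was lower by 0.50, and Slc25a28 relative to Slc25a37 was higher by 0.48, also with groups apart (exact p = 0.0286 each). These 4 had an adjusted p of 0.0643 over the 9 exact tests, so none passed 0.05. Their exact p was already the smallest possible, so 4 pairs with groups apart could not pass, and the adjusted value decides nothing.

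The other pairs had overlapping groups on the brightest probes. Slc25a30 relative to Slc25a14 differed by 1.75, Slc25a42 relative to the brightest Slc25a16 probe by 1.16 and Slc25a23 relative to Slc25a25 by -1.30 (exact p = 0.0857 each, adjusted p = 0.11). Against the other Slc25a16 probes, Slc25a42 differed by 1.47 and 1.40 (exact p = 0.0286 each, not adjusted). Slc25a34 relative to Slc25a35 differed by 0.93 (exact p = 0.171). Slc25a12 relative to Slc25a13 differed by -0.23 (exact p = 0.2), and the second Slc25a12 probe turned the sign to 0.22 (exact p = 0.514). The fall of Slc25a12 was thus not shown to differ from the value of citrin.

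**Figure D4:**
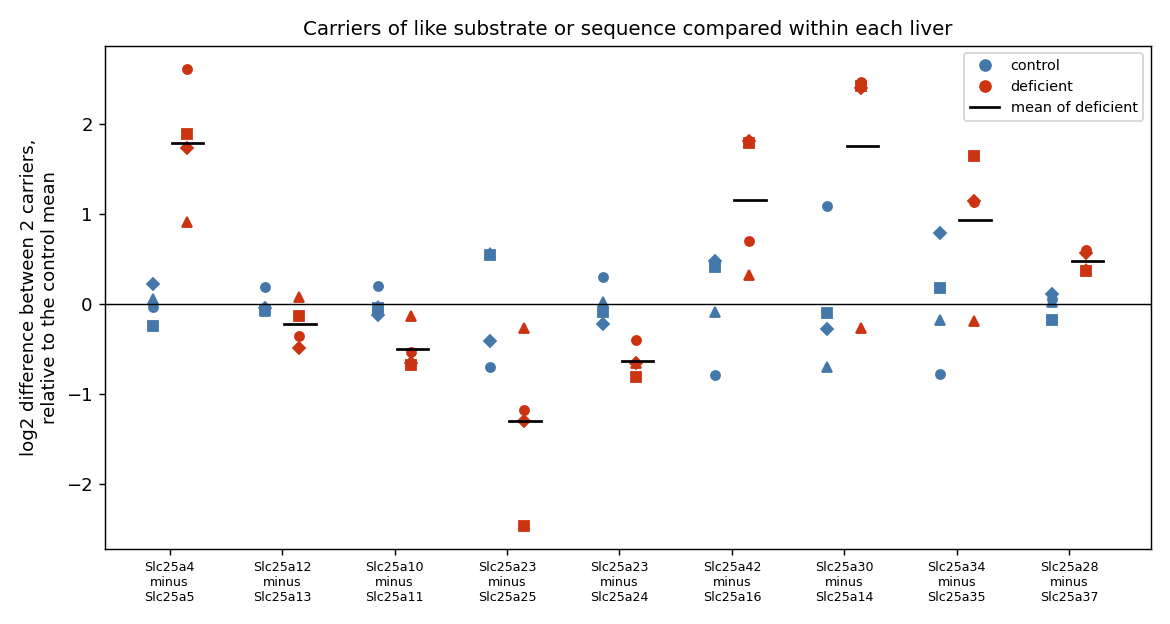
Log2 difference between 2 carriers in each liver, relative to the mean of the control livers (y axis), for 9 pairs (x axis), with control livers blue and deficient livers red. Symbols give the animal number within its group and black lines the mean of the deficient livers. Groups are apart for Slc25a4 against Slc25a5 (1.78), Slc25a10 against Slc25a11 (-0.50), Slc25a23 against Slc25a24 (-0.63) and Slc25a28 against Slc25a37 (0.48).

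Promoters were read for the members from a RefSeq table (GRCr8), which held 35 of the 42. The 250 bases before the annotated start are printed for the 4 carriers that rose and were in the table, Slc25a30 not being in it. Capitals mark CCAAT boxes (CCAAT, or ATTGG on the other strand), common elements of housekeeping and metabolic promoters, and in Slc25a34 also 1 nuclear receptor half-site (AGGTCA, here TGACCT on the other strand):
Slc25a4 (chr16:52805271-52805520, plus strand): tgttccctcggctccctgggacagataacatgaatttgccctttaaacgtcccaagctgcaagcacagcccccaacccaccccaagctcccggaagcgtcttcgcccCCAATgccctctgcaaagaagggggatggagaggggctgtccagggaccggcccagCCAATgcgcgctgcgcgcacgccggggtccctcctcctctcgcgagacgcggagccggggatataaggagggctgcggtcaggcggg
Slc25a22 (chr1:205965878-205966127, minus strand): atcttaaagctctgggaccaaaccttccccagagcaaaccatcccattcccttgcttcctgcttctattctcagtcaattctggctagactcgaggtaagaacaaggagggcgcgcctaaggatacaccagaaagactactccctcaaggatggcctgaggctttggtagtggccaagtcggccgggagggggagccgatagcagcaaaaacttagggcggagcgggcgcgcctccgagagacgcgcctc
Slc25a34 (chr5:159219893-159220142, minus strand): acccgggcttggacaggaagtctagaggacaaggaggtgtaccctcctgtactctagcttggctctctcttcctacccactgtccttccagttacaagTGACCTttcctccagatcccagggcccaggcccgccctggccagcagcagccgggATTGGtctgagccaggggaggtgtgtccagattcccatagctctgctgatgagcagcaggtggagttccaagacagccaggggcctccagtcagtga
Slc25a42 (chr16:19247724-19247973, plus strand): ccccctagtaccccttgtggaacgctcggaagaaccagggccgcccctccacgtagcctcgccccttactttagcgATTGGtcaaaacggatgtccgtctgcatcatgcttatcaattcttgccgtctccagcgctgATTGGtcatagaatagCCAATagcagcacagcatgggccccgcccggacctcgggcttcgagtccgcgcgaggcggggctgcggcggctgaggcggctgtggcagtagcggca
The Slc25a4 window held 2 CCAAT boxes, 143 and 87 bases before the start, and that of Slc25a42 held 3, at 174, 113 and 97 bases. The Slc25a22 window held none of the motifs searched. A CCAAT box on either strand was present in 19 of the 35 member promoters (54.3%) and in 34.3% of all 27457 promoters of the table. It was present in 3 promoters of carriers that rose and in 3 of carriers that fell, so the called directions were not parted by it. The half-site occurred in 6 member promoters (17.1%, beside 13.7% of all promoters). A longer form that binds estrogen-related receptors (TCAAGGTCA) and the half-site repeated with 1 base between, as PPAR receptors bind, occurred in 0 of 35, beside 0.368% and 0.0546% of all promoters. The amino acid response core TGATGNAA also occurred in 0 (3.27% of all), and the NRF1 core GCGCATGC in Slc25a13 alone (2.38% of all). All motifs were sought on both strands. A match is a description of these letters only.

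Other proteins of the mitochondrial membranes were read from a list of 30, of which 28 were tested. Of these 2 rose and 2 fell (14.3% called, near the 11.1% of all genes), with a median of -0.02. Timm22, the channel that inserts carrier proteins into the inner membrane, fell by 0.46 ± 0.11 (limma adjusted p = 0.035). Tomm70, the outer membrane receptor that recognises carrier precursors, fell by 0.38 ± 0.09 (limma adjusted p = 0.0308). On array 1 they were at -0.05 and 0.04. The other import proteins tested, Tomm20, Tomm22, Tomm40, Timm17a and Timm23, were between -0.17 and 0.25 and not called. Abcb10, an exporter of the inner membrane needed for heme synthesis, rose by 1.27 ± 0.16 (limma adjusted p = 0.00341), and the sideroflexin Sfxn5 by 0.61 ± 0.09 (limma adjusted p = 0.00628). The pyruvate carrier subunits Mpc1 and Mpc2 were at 0.01 and 0.32, and Vdac1, Vdac2 and Vdac3 between -0.13 and 0.16, none called. The count of 4 was 1 without array 3 and 7 without array 4, where 1.42% and 19.3% of all genes were called.

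Of 26 enzymes that use or supply what the carriers move, 25 were tested. Of these 4 rose and 5 fell (36% called, beside 11.1% of all genes), with a median of -0.13. In the urea cycle, which citrin and the ornithine carriers serve, the enzymes that build and split argininosuccinate, Ass1 and Asl, rose by 0.77 ± 0.10 and 1.12 ± 0.17, while Otc and Arg1 of the same cycle were called lower at -0.54 ± 0.13 and -0.80 ± 0.18. Cps1, its first step, was at -0.48 and not called. Glud1, glutamate dehydrogenase of the matrix, was called lower at -0.67 ± 0.11, and Acly, which splits the citrate that Slc25a1 exports, at -1.04 ± 0.19. Shmt2, which loads one-carbon units onto mitochondrial folate, was called lower at -0.68 ± 0.09, while the carrier Slc25a32 was at 0.08. The limma adjusted p-values of these 7 called enzymes lay between 0.00412 and 0.0348. Without array 3, 0 of the 25 were called, beside 1.42% of all genes, although 9 were in the full set.

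Further family members that the array lists under other names were measured but lie outside the rule. Slc25a51, which carries NAD into mitochondria, had levels of 10.75, 10.74, 10.85 and 10.73 in control and 11.79, 11.29, 10.81 and 11.26 in deficient livers. All but deficient 3 were above the controls. It rose by 0.52 ± 0.13 (limma adjusted p = 0.0373). Slc25a47, a carrier largely restricted to liver, was at 0.40 ± 0.17 and not called (limma adjusted p = 0.177).

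Markers of other cells were read beside the uncoupling proteins and mitoferrins. Of 9 brown fat and adipocyte markers, Dio2, Elovl3, Plin1 and Lep were not well above background in any liver, like Ucp1. The summed level of the 9 was 11.8 to 12.5 in control and 12.3 to 12.7 in deficient livers, and Cidea alone was called, at 0.81 ± 0.09 (limma adjusted p = 0.00243). Of 13 erythroid markers 5 were tested, with a summed level of 16.7 to 17.7 in control and 16.0 to 17.2 in deficient livers and a median difference of -0.47. Tfrc, the transferrin receptor, was the only one of them called, at 1.55 ± 0.23 (limma adjusted p = 0.0062). The 12 hepatocyte markers summed to 20.4 to 20.8 in control and 19.9 to 20.5 in deficient livers. Of them Apoa2 was called higher at 1.86 ± 0.14, and Fgb, Ttr, Tdo2 and Ahsg were called lower, between -1.40 and -0.55. None of 11 macrophage markers tested was called by limma, and 0 had an unadjusted p under 0.05. Their part in the values of the carriers was not tested.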

How the data were processed

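The members, gene lists and pairs were chosen with earlier results of these data known. Spot intensities of 4 Agilent 2-colour rat arrays were deposited by the authors, with Agilent Feature Extraction 10.7.1.1 named in the file headers, and probe positions are in rn4. Control spots (1377 per array) were left out, and 42877 spots stood for 30367 probes. Mean signals were corrected with normexp (offset 50). Before that, 74 spot values with a local background over 5 times the channel median were dropped, which can change how an array is scaled. With these spots kept, 961 of 15037 genes were called, beside 1671. Loess within and Aquantile between arrays followed. Probes well above background in at least 4 of 8 livers were kept, and the brightest probe stood for its gene, since 13 members have several. Diet was tested with limma 3.58.1 in R 4.3.3 (lmFit and eBayes, dye as a term, array as a random block, correlation 0.423, Benjamini-Hochberg over 15037 genes). Symbols were updated through a RefSeq table for 4410 probes, and 8717 probes had none. In simulated data for this comparison (15037 genes), the fit recovered 98 of 100 genes changed by 1 and 100 of 100 changed by 2 on the log2 scale, and 22 of its 220 calls were false. The simulated spread was smaller than the standard errors of the real fit imply, so recovery in the real data is likely lower. The authors also deposited a table of normalised intensities by an unstated method, which served as an alternative. Members were named by role, apart from 1 tested carrier and 1 listed enzyme that are not reported here, called members, the folate and S-adenosylmethionine carriers, the uncoupling proteins and both translocases with values per liver, and of each list the called genes, at most 6 by smallest p. Otc, Arg1, Cps1 and the uncalled transporters were named after their values were seen. Alternatives covered background, scaling, filters, probes, blocks, sex, weights, the authors' table, females only, and leaving out each animal or array.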

Additional observations from a re-analysis of the deposited data

Results flagged for a closer look

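In 64 groups of 4 livers, 5 had 1 liver that stood apart from the other 3 by Dixon's criterion, where chance alone would give about 1 in 20. Deficient 3 was low for Slc25a4 (12.35, the others 13.48 to 13.67) and Slc25a30 (8.92, the others 11.44 to 11.79), and high for Slc25a44 (10.94, the others 10.56 to 10.61), each time on the side of the controls. Deficient 1 was low for Slc25a1 (8.84, the others 10.25 to 10.40) and high for Slc25a28 (11.42, the others 11.11 to 11.15). A diet by sex term gave 0 called members by limma (smallest adjusted p 0.376, 3 at an unadjusted p under 0.05), with only 1 male control.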

How the results depend on the processing

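Of 798 member values recomputed under alternatives, 653 kept their sign and side of the threshold, 85 lost and 13 gained a call, 47 uncalled values changed sign, and 0 called values turned. The count of carriers called higher, 5, was 3 with spots in very high background kept, with processed signals, with the array as a fixed block and with the authors' table, 2 with no filter, with sex added or without array 2, 1 with no array block or without array 3, and 0 in females only. Leaving out 1 animal gave 1 to 5. The count called lower, 4, was 1 with a fixed block, 0 with no block, 2 with sex added, 0 in females only, 2 without array 1 or array 2, 0 without array 3, and 1 to 7 with 1 animal left out. The other transporters, 4 called, had 2 with processed signals, a fixed block, no block or sex added, 7 with sample weights or without array 4, 0 in females only, 1 without array 3, and 1 to 6 with 1 animal left out. The enzymes, 9 called, had 4 with a fixed block or no block, 0 in females only, 5 without array 2, 0 without array 3, and 3 to 12 with 1 animal left out. Over all genes the calls ranged from 50 (females only) to 3579 (without deficient 2) beside 1671. They were 464 with a fixed block, 399 with no block, 831 with sex added and 213 without array 3. The pair Slc25a12 and Slc25a13 turned from -0.23 to 0.22 with the second Slc25a12 probe, an alternative chosen after seeing the data. The cause of these changes was not tested.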
